A study of Rattus norvegicus with 7 samples.

Results

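Gene expression in the ischemic rat brain 24 hrs after embolic middle cerebral artery occlusion (eMCAo) was set against that of normal brain, 1 Illumina bead array each. The comparison covers every gene that a named probe reports, 13337 genes in all, read from 13793 of the 22523 probes of each array. Of these genes 9340 were detected on at least 1 of the 2 arrays, 8656 on the normal array and 8983 at 24 hrs. A gene was taken as detected when its intensity, the brightness of its probe above background, exceeded a limit of 8.72 to 10.1 units set for each array from its negative values.

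In the model an embolus is injected into the middle cerebral artery, which feeds much of the cortex and striatum. The rats were male, of the Wistar strain, and weighed 280 to 320 g, and their age was not given. By the study's methods the normal rats had no surgery, so anesthesia and surgery are part of the difference between the groups. The series holds 7 arrays from 1 slide, for normal and for 12, 24, 48 and 72 hrs and 5 and 7 days after eMCAo, each hybridised with 400 ng of total RNA. The labels call the tissue ischemic brain on every array, the normal one included, name no brain region, and do not state if 1 rat or a pool gave the RNA of an array. With 1 array per group there was no replicate and no test, and every difference below compares these 2 arrays.

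When an artery is blocked, the tissue it feeds loses oxygen and glucose, and neurons at the core die within hours. Dying cells release signals that activate microglia and astrocytes, endothelium begins to display adhesion molecules, and chemokines draw neutrophils and then monocytes from the blood. Around the core, cells switch on heat shock proteins, antioxidant enzymes and growth arrest genes. The mRNA level of a gene in such tissue moves both with what each cell transcribes and with which cells are present, and in bulk RNA fewer cells of a type and less RNA per cell cannot be told apart.

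At 24 hrs 425 genes were at least 2-fold higher than normal and 251 at least 2-fold lower, which is 4.55% and 2.69% of the genes detected. These percentages are the background against which the counts of each gene group below are to be read. Where a count is given over measured members, it includes undetected ones, which cannot pass. Its share over detected members is then equal or larger. The 2 directions differed in reach. Of the genes higher, 112 were at least 4-fold, 33 at least 8-fold and 9 at least 32-fold from normal, whereas 13 of those lower reached 4-fold and 0 reached 8-fold. The middle of the distribution hardly moved, with a median log2 difference of -0.022 and 95% of detected genes between -1.03 and 1.41. Among the genes higher, 87 were not detected on the normal array, and 14 of those lower were not detected at 24 hrs. Without normalization between arrays 516 genes were higher and 180 lower, so that the share higher moved from 62.9% to 74.1%.

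**Figure D1:**
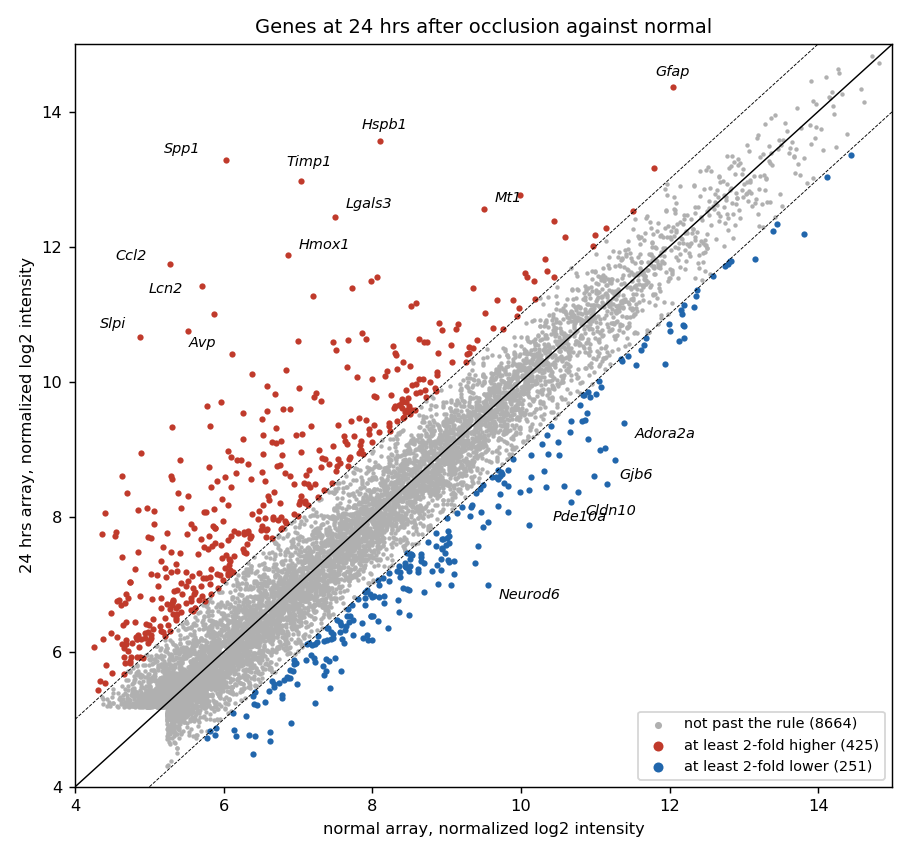
Normalized log2 intensity of each of the 9340 detected genes on the normal array (horizontal axis) and on the 24 hrs array (vertical axis), 1 point per gene. The solid line marks equal levels and the dashed lines 2-fold, with 425 genes above the upper line in red and 251 below the lower line in blue.

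Folds are ratios of normalized intensities to which an offset of 16 units was added, which understates the change of dim genes. A fold against an array on which the gene was below its detection limit used the lowest detected level there and is written as at least, so that it can come out under 2 for a gene past the rule. Such a bound holds for the offset and background model used here. Levels are deposited intensities, to which no normalization between arrays was applied here. They serve to follow 1 gene over the arrays and not to compare genes with each other. The mean intensity of all probes was 298 on the normal array, 321 at 24 hrs and 385 at 72 hrs. A small difference in level between arrays may therefore be one of scale. The spread between unlike animals could not be measured. The closest 2 arrays of the series, 72 hrs and 5 days, differed by a robust SD of 0.225 on the log2 scale over genes, and the 2 arrays compared here by 0.41. Between those closest arrays 131 genes differed by 2-fold, against 676 between normal and 24 hrs.

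The 3 genes farthest above normal encode secreted proteins. Spp1, which encodes the phosphoprotein osteopontin, had intensities of 32.9, 4239, 9707, 11705, 18189.6, 21038 and 5808 on the arrays in order of time from normal. Ccl2, the chemokine that attracts monocytes, had 10.4, 1093, 3342, 1781, 839, 289.7 and 76.5 in the same order. For Timp1, an inhibitor of matrix metalloproteinases, they were 94.6, 4058, 7691, 5126, 4018, 2441 and 835. Ccl2 and Timp1 had their brightest array at 24 hrs, while Spp1 went on to higher levels until 5 days. The folds over normal at 24 hrs were 153-fold for Spp1, 88.6-fold for Ccl2 and 61.2-fold for Timp1. With other offsets and background models Spp1 ran from 101-fold to 187-fold and Ccl2 from 47.6-fold to 128-fold, and no alternative turned the direction of any of the 299 genes past the rule that were chosen for naming.

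Next in order stood Lcn2, a protein that binds bacterial iron carriers, at 52.0-fold, with intensities of 22.3, 948, 2624, 2162, 3374, 2820.2 and 461. Hspb1, a small heat shock protein of stressed astrocytes and vessels, followed at 44.0-fold, with 223, 5897, 11595, 8413, 4824, 2791 and 705. Slpi, an inhibitor of leukocyte elastase, was not detected on the normal array and then had 811, 1543, 5164, 1601, 1303 and 181 and was at least 43.0-fold higher. The fold of Lcn2 ran from 31.9-fold to 67.1-fold and that of Slpi from 23.1-fold to 62.7-fold over the alternatives. Of these, Hspb1 was brightest at 24 hrs, Slpi at 48 hrs and Lcn2 at 72 hrs. The remaining genes of the 24 farthest above normal ran from Ccl7 at 37.4-fold to S100a8, at least 10.3-fold and included the receptors Cd14, Cd44 and Tnfrsf12a, the lipid droplet protein gene Plin2, the mitochondrial outer membrane protein gene Tspo, the tubulin gene Tubb6, Gldn, which encodes gliomedin of peripheral nerve nodes, and the kininogen gene Kng2. Gldn had its brightest array at 24 hrs, with 23.9, 112, 772, 462, 142, 34.6 and 21.9, and was 14.6-fold higher at 24 hrs. Kng2 was not detected on the normal array and then had 70.2, 467, 236, 93.9, 35.2 and not detected and was 13.1-fold higher against the lowest detected level, a fold that ran from 3.96-fold to 18.7-fold over the alternatives and is no bound.

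**Figure D2:**
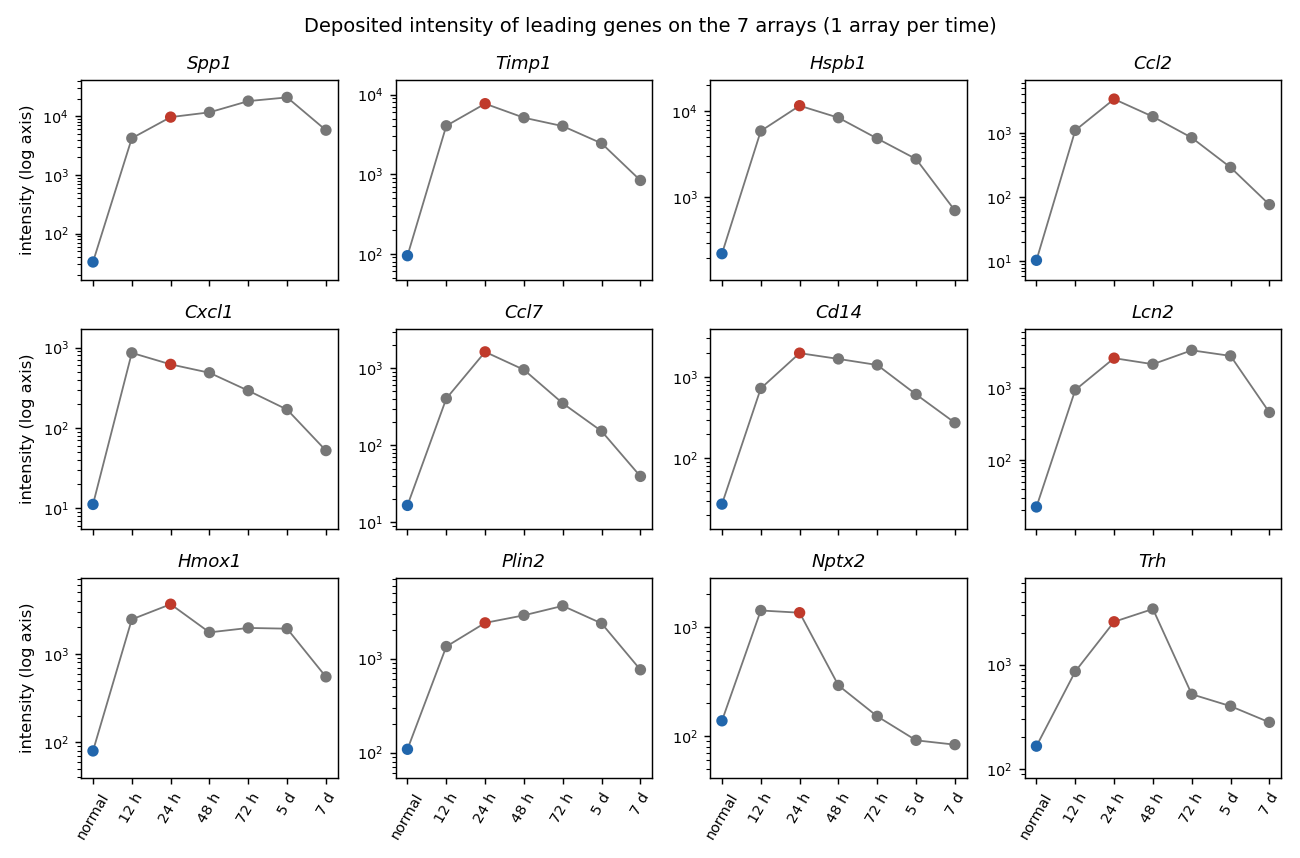
Deposited intensity (vertical log axis, own scale per gene) of 12 genes on the 7 arrays, which are spaced evenly and not by time, with the normal array in blue and the 24 hrs array in red. Each of the 12 lay above its normal level at 24 hrs, and Timp1, Hspb1, Ccl2, Ccl7, Cd14 and Hmox1 were at their brightest there.

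Chemokines formed one of the groups with most members higher. Of 25 CC chemokines and receptors measured, 17 were detected, 8 were at least 2-fold higher and 0 were lower, and of 22 CXC genes, 16 were detected, 6 were higher and 1 was lower. The medians over all measured members, undetected ones included, were 0.12 and 0.42 on the log2 scale, so the change sat in part of each family. Among monocyte attractants, Ccl7 had intensities of 16.7, 405, 1633, 957, 351, 153 and 39.6 over the 7 arrays, and Ccl12, undetected on the normal array, then had 53.6, 238, 209, 24.2, 43.1 and 9.32. Ccl3 and Ccl4, inflammatory chemokines of macrophages, were at least 7.41-fold and at least 4.75-fold higher. Ccr1, a receptor for several of these ligands, was 7.82-fold higher (13 and 301 on the normal and 24 hrs arrays). Ccl19 and Ccl5, which attract lymphocytes, did not pass, with log2 differences of -0.91 and 0.63.

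The neutrophil attractants Cxcl1 and Cxcl2 behaved differently in time. Cxcl1 had 11.2, 859, 617, 485, 290.5, 169 and 52.2 and was 16.3-fold higher at 24 hrs, past its brightest array at 12 hrs, with a range of 9.22-fold to 23-fold over the alternatives. Cxcl2 was not detected on the normal array and then had 214, 248, 689.5, 318, 197 and 21.6 and was at least 7.32-fold higher, with its brightest array at 48 hrs. Ccl20, which attracts lymphocytes and dendritic cells, was like Cxcl1 in that its 12 hrs array was the brightest, with no detection on the normal array and then 348, 190.0, 31.5, 17.8, 13.1 and not detected. Cxcl10 and Cxcl11, ligands of the receptor Cxcr3, were at least 7.20-fold and at least 2.38-fold higher, and the scavenger ligand gene Cxcl16 went from 75.5 to 747 (6.90-fold), a fold that ran from 3.09-fold to 7.62-fold over the alternatives. The neuronal chemokine gene Cx3cl1 lay lower without passing (log2 difference -0.98), and Cxcr1 was 2.36-fold lower, from 52.3 to 10.2.

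Transcription of many of these genes is driven by NF-kB, a factor whose dimers bind a short DNA element. The element was searched as GGG, NN for any bases, and TTTCC in a row, on both strands, in the RefSeq promoters of build GRCr8, each holding 250 bases before and 50 after a gene's start. It occurs in 1.53% of the 33469 promoters of that table. Among the chemokine genes higher, 5 of 8 CC genes and 6 of 6 CXC genes have a promoter in the table, and 1 and 2 of these hold a match. Among the other measured members, 2 of 11 CC promoters and 1 of 13 CXC promoters hold a match. In the list of TNF and NF-kB genes 2 of 5 promoters of genes higher hold one, and 4 of 15 of the other measured members do too. A match is a description of the letters and does not show binding. The stretches below are shown because these 5 genes all lay above normal, with each match in capitals, read 5′ to 3′ toward the gene.
Cxcl1 (chr14:17479380-17479439, minus strand): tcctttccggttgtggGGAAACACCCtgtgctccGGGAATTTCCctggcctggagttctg
Cxcl2 (chr14:17467285-17467344, minus strand): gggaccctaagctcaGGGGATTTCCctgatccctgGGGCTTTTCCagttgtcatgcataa
Ccl20 (chr9:91837045-91837104, plus strand): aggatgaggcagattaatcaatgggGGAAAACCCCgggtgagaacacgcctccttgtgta
Nfkbia (chr6:78597069-78597128, minus strand): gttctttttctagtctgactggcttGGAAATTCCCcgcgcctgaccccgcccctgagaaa
Nfkb2 (chr1:255108329-255108388, plus strand): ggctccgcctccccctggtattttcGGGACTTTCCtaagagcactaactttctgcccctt
Cxcl1 and Cxcl2 hold 2 matches each and lie close together on chromosome 14. Counted from the start, the matches of the 5 lie between positions -102 and -11.

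Of the NF-kB genes themselves, Nfkbia, the inhibitor that NF-kB induces against itself, had 581, 2739, 2571, 2659.6, 3245, 2199 and 1241 and was 4.08-fold higher at 24 hrs. Nfkb2 was 2.89-fold higher (16.5 on the normal array and 104 at 24 hrs), while the subunit genes Rela and Nfkb1 did not pass, at log2 differences of 0.45 and 0.62. The largest difference in the list belonged to Tnfrsf12a, the receptor for the cytokine TWEAK, with 30.7, 484, 805, 345, 309.7, 145 and 51.1 and a fold of 13.4. The TNF receptor gene Tnfrsf1a was 2.73-fold higher and the apoptosis inhibitor gene Birc3 at least 2.85-fold higher. In all 6 of 25 measured members were higher, with 19 detected, and 0 were lower.

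In the interleukin-1 system a ligand and its inhibitors were higher. Il1b, the secreted fever cytokine, had 14.1, 271, 432, 1125, 622, 434 and 103 and was 10.7-fold higher. Il1r2, the decoy receptor that captures it, was not detected on the normal array and then had 127, 304, 283, 262, 103 and 16.7 and was at least 8.71-fold higher, and Il1rn, the receptor antagonist, was at least 4.98-fold higher. Ligand and inhibitors were therefore all above normal at 24 hrs, with Il1b brightest at 48 hrs. Myd88, the adaptor of the interleukin-1 and Toll-like receptors, was 3.75-fold higher and Pycard, the adaptor of inflammasomes, 2.66-fold higher. Il18 and Nlrp3 did not pass (log2 differences 0.88 and 0.68), and 7 of 25 measured members were higher in all, with 18 detected.

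In the list of gp130 cytokines and STAT3 feedback, 5 of 22 measured members were higher, with 18 detected, and 0 were lower. Stat3, the transcription factor these cytokines activate, was 4.0-fold higher (72.0 on the normal array and 409.7 at 24 hrs). Jak2, its kinase, was 2.41-fold higher, and Osmr, the oncostatin M receptor gene, at least 1.78-fold higher. Socs3, the feedback inhibitor, was at least 1.83-fold higher, but it was dim, undetected on the normal array and 41.8 at 24 hrs. Il6 lay higher without passing, at a log2 difference of 0.68. Of the adhesion molecules that hold leukocytes to endothelium, Icam1 had 38.7, 301, 374, 233, 308, 313 and 147 and was 5.59-fold higher, and Selp, a selectin, was at least 1.93-fold higher from no detection. Vcam1 lay on the other side of normal, at -0.53, and Sele at 0.92, neither past the rule. Among prostaglandin enzymes Ptgs2, the inducible cyclooxygenase, had 653, 3784, 1994, 839, 438, 320.5 and 384 and was 2.82-fold higher, and Ptgds, the abundant prostaglandin D synthase of meninges and oligodendrocytes, went from 15769.7 to 7867 and was 2.14-fold lower.

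Receptors and enzymes of phagocytes were higher in number, and 11 of the 12 receptors higher were brightest on a later array. Of 26 scavenger, Toll-like and phagocyte receptors measured, 24 were detected and 12 were higher, with a median of 0.72 over all measured members. Cd14, the co-receptor for endotoxin, led with 27.3, 724, 1965, 1668, 1405, 610.4 and 273 and a fold of 35.1, from 22.6-fold to 43.9-fold over the alternatives, and its 24 hrs array was the brightest. Fcgr3a, an immunoglobulin receptor, had 57.1, 182, 462, 907, 2102, 2952 and 1108 and was 5.25-fold higher. Clec7a, the beta-glucan receptor dectin-1, was not detected on the normal array and then had 15.5, 120.4, 197, 508, 450.4 and 192 and was at least 3.96-fold higher. Both of these were brightest at 72 hrs or 5 days, several times above their 24 hrs level. Cd14 was also 1 of the 6 markers of microglia and macrophages measured. Together the 6 summed to 1878 units on the normal array, 4154 at 24 hrs and 17940.2 at 5 days. At 24 hrs 3 of them were higher and 1 lower, and most of the rise of the sum by then was that of Cd14. The part of these cells in the values was not tested. Tlr2 and the signaling adaptors Tyrobp and Fcer1g were 2.82-fold, 2.69-fold and 2.78-fold higher.

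The oxidase with which phagocytes make superoxide was represented by 6 detected members of 8 measured, of which 4 were higher. Cyba, its small membrane subunit, had 499, 867, 1775, 3319, 6557, 7649 and 3996 and was 3.23-fold higher, Ncf4 was at least 3.47-fold, Rac2 2.30-fold and Ncf1 2.11-fold higher. Cybb, the catalytic subunit gene, missed the 2-fold line at a log2 difference of 1.0. Of the complement genes higher several were brightest at 5 days. C1qb and C1qc, chains of the recognition complex, were 2.91-fold and 3.30-fold higher, C1s and C1r, its proteases, 2.98-fold and 2.12-fold, and Serping1, their inhibitor, 3.77-fold. Cfb of the alternative pathway differed from these in being brightest at 24 hrs, with 173, 397, 1037, 366, 383, 435 and 268 and a fold of 4.85. In the list of complement and coagulation 11 of 33 measured members were higher and 0 lower, among them the anticoagulant receptor genes Procr (4.73-fold) and Thbd (2.98-fold) and the inhibitor gene Tfpi2 (at least 5.51-fold), while tissue factor, F3, lay at 0.31 on the log2 scale.

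Genes that mark resident microglia were divided, with 4 of 14 measured higher and 1 lower. P2ry12, the purine receptor that marks surveying microglia, had 132, 26.4, 45.2, 179, 595, 1031 and 608, lowest at 12 hrs, and was 2.40-fold lower at 24 hrs. Tmem119, Cx3cr1 and Aif1 stayed near normal, at log2 differences of -0.12, -0.079 and 0.091. Trem2 lay at -0.54. Itgam, Cd53 and Ptprc, which other leukocytes share, were 3.88-fold, 2.30-fold and at least 2.08-fold higher. The median of the 14 microglial genes measured was -0.099, and it turned to 0.011 without normalization between arrays.

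Markers of other leukocytes were detected in part. Of the 7 neutrophil markers 0 were detected on the normal array and 3 at 24 hrs, S100a8, Mpo and Camp, while S100a9, Elane, Csf3r and Ngp were not. S100a8, a calcium-binding protein stored in neutrophils, was not detected on the normal array and then had 366, 361, 409.5, 348, 151 and 43.7 and was at least 10.3-fold higher. The summed intensity of the 7 markers was 20.5 on the normal array and 398 at 24 hrs, most of it that of S100a8. In a longer list of 15 neutrophil genes measured, 9 were detected at 24 hrs, 4 were higher and 0 lower. These 4 were Lcn2, S100a8, Mmp9 and Itgam, of which Itgam is shared with other leukocytes. The part of neutrophils in the genes above was not tested. Mmp9, a gelatinase that neutrophils carry, had 48.5, 272, 351, 256, 176, 71.9 and 37.7 and was 4.54-fold higher. Of T and B lymphocyte markers 1 of 6 measured was detected at 24 hrs, Cd8a, higher by at least 1.48-fold, and Cd3d, Cd3g, Cd4 and Cd79b were not detected on either array. Cd3e was detected on the normal array alone and was at least 1.63-fold lower. In the longer list of 17 lymphocyte genes measured, 1 was detected on the normal array and 5 at 24 hrs.

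Antigen presentation genes were higher on both branches. RT1-Da, a class II chain, had 95.5, 238, 573, 1644, 4216, 3253 and 1915 and was 4.49-fold higher, and Ifi30, a lysosomal thiol reductase that opens antigens, was 3.14-fold higher. Cd74, the invariant chain, lay just inside the line at a log2 difference of 0.95. On the class I side RT1-A1 was 2.91-fold higher, and the immunoproteasome subunit genes Psmb8 and Psmb9 were 2.96-fold and 2.04-fold higher, whereas B2m lay at 0.54 and Tap1 at 0.62. Counts were 4 of 11 measured class II genes and 5 of 18 class I genes, with 0 lower.

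Interferon-induced genes were above normal in number, 4 of them at their brightest at 24 hrs and 8 later. Of 29 measured, 27 were detected and 12 were higher, with a median of 0.83 over all measured. Gbp2, a guanylate-binding protein of infected cells, had 42.6, 230.0, 549, 309, 402, 447 and 269.7 and was 7.47-fold higher, at its brightest at 24 hrs. Mx1, an antiviral GTPase, had 32.7, 133, 359.6, 398, 530.0, 2492 and 1445 and was 5.95-fold higher, far under its level at 5 days. Ifitm3, a membrane protein that blocks virus entry, had 307, 1087, 2167, 1527, 1947, 1588 and 1061 and was 6.06-fold higher. Irf7, Irf1 and Irf9, transcription factors of this response, were 2.45-fold, 2.86-fold and 2.16-fold higher, and the sensor gene Ifih1 lay at 0.70 and Bst2 at -0.12.

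The element that interferon factors bind was searched as GAAA, NN for any bases, and GAAA in a row, on both strands, and it occurs in 3.92% of the 33469 promoters. In the interferon list it was found in 5 of 9 promoters of genes higher and in 10 of 13 promoters of members that did not pass, and in the class I list in 1 of 5 and 7 of 11. In both lists the share with the element was larger among the members that did not pass. Genes from both lists that lay above normal are shown with the match in capitals.
Cxcl10 (chr14:15988816-15988875, plus strand): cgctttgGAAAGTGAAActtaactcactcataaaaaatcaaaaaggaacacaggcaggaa
Irf7 (chr1:205800058-205800117, minus strand): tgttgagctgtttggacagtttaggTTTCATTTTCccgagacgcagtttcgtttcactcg
Gbp2 (chr2:234005671-234005730, plus strand): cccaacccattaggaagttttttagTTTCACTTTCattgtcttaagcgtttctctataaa
Psmb8 (chr20:4657001-4657060, minus strand): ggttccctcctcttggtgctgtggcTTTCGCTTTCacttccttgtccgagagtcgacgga
In Cxcl10 the match reads as searched, and in the other 3 on the opposite strand. In Psmb8 it covers the start itself, and in Cxcl10 it begins at position -243.

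Stress genes were higher in small number. Of 36 heat shock proteins and chaperones measured, 31 were detected and 4 were higher. Besides Hspb1 these were Bag3, a co-chaperone that works with small heat shock proteins, with 364, 2706, 1466, 1015, 1299, 999 and 638 and a fold of 3.60, Hspb8, its partner, at 3.67-fold, and Hspa2 at 3.28-fold. Members of the large chaperone families lay closer to normal. Hsp90aa1, Hspd1, Hspa5 and Dnajb1 had log2 differences of 0.45, 0.59, 0.71 and 0.71, and the lens and glial chaperone gene Cryab 0.87. Hspb1, Hspb8 and their partner Bag3 were thus 3 of the 4 past the rule, while the list's median over all measured members was 0.40.

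In the integrated stress and unfolded protein response, Atf3, a factor induced in injured neurons, had 10.8, 216, 117, 54.9, 63.6, 72.8 and 23.8 and was 3.71-fold higher. Ppp1r15a, which ends the translation block, was 2.51-fold higher, Dnajc3 2.32-fold and Nupr1 2.16-fold. Ddit3, which encodes the death factor CHOP, lay at 0.62 and Atf4 at 0.78, both inside the line, as did Hspa5 above. In all 5 of 35 measured members were higher. Antioxidant enzymes gave 2 of 35, Gclc of glutathione synthesis (2.30-fold; 559.8 and 1391) and the thioredoxin reductase gene Txnrd1 (2.08-fold), a share near the background. Nqo1, Sod2 and Prdx1 did not pass, at 0.44, 0.68 and 0.75, and Gstm1 lay at -0.84.

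Heme and metal genes held some of the highest folds of the comparison although 5 of 29 members passed. Hmox1, which breaks heme down, had 79.8, 2459.5, 3651, 1753, 1967, 1930.2 and 549.8 and was 32.4-fold higher, at its brightest at 24 hrs. Its constitutive relative Hmox2 lay at a log2 difference of -0.55. Cp, the copper ferroxidase ceruloplasmin, had 10.8, 205, 362, 330.4, 562, 383 and 164 and was 9.95-fold higher. Mt1, a metallothionein that binds zinc and copper, had 648, 6438, 5713, 7535, 15877, 6301 and 4038 and was 8.28-fold higher, with its maximum at 72 hrs, while the neuronal and astrocytic form Mt3 lay at -0.64. Hmox1 and Mt1 were thus past the rule and their relatives Hmox2 and Mt3 were not. The iron storage genes Fth1 and Ftl1 stayed inside the line (0.10 and 0.74).

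Metallothionein genes carry metal response elements in front of their start. The core TGCNCNC, searched on both strands, is short, and 49.6% of the 33469 promoters hold at least 1. The Mt1 promoter holds 7, and 36 promoters of the table, or 0.108%, hold that many or more. The stretch with all 7 in capitals is shown because it sets Mt1 apart from nearly all promoters by its letters alone.
Mt1 (chr19:10832985-10833161, minus strand): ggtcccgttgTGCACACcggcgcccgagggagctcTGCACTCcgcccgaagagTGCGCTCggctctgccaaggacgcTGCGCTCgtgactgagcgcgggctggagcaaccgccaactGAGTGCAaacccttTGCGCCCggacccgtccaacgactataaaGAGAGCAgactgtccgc
It runs over 177 bases, and its matches lie between positions -176 and -20.

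Transcription factors of the immediate early kind were still above normal at 24 hrs, 4 of the 9 higher having their highest normalized level at 12 hrs and 5 at 24 hrs. Fos had 116, 2368, 483, 241, 180.0, 148 and 106 and was 3.27-fold higher. Junb had 327, 2021, 967, 724, 650.3, 495 and 428 and was 2.58-fold higher, and Jun 199.8, 417, 577, 429, 339, 284 and 253 with a fold of 2.40. Fos and Junb were brightest at 12 hrs and Jun at 24 hrs. Cebpb, which drives acute phase genes, had 253, 1337, 1409, 1340.3, 1426, 1114 and 543, nearly level from 12 to 72 hrs, and was 4.77-fold higher. Of 23 AP-1, ATF and related factors measured, 9 were higher and 0 lower.

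Early genes that follow neuronal activity split. Nptx2, a pentraxin that gathers glutamate receptors at synapses, had 138, 1413, 1348, 291, 152, 91.5 and 83.5 and was 7.79-fold higher. Arc, which trims receptors from synapses, had 365, 1539, 171, 51.5, 62.6, 39.1 and 136 and was 2.17-fold lower, although its 12 hrs array was above normal. Nr4a3, a nuclear receptor gene, took the same course, with 271, 465, 117, 65.8, 63.1, 81.1 and 140.0, and was 2.27-fold lower. Bdnf and Egr1 lay at log2 differences of -0.21 and -0.46, neither past the rule. Of 21 measured members 6 were higher and 2 lower, and among those higher Inhba, Junb, Gadd45b, Ptgs2 and Fos were all brightest at 12 hrs.

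Growth arrest genes were led by the Gadd45 family, small proteins that respond to DNA damage and stress. Gadd45g had 112, 1272, 890.1, 443, 297, 239.7 and 121 and was 6.03-fold higher, Gadd45a was 3.52-fold and Gadd45b 3.13-fold higher. Myc had 72.5, 434, 536, 314, 311, 234 and 131 and was 5.10-fold higher. The p53 targets Cdkn1a and Mdm2 lay at 0.75 and 0.91, inside the line. The study gives Cdkn1a a far larger positive log ratio at the same time after eMCAo. The reason for that difference was not tested. In the apoptosis list 5 of 33 measured members were higher, and of these Bcl2a1 (5.50-fold), Mcl1 (2.55-fold), Cflar (3.88-fold) and Birc3 are known as inhibitors of cell death and Bid (2.60-fold) as a promoter of it. Among caspase genes Casp4, of the inflammatory kind, was 2.28-fold higher, and others did not pass, with Casp8, Casp9 and Casp12 at -0.04, -0.42 and 0.67, and Bax at 0.14.

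In energy metabolism some genes of glycolysis and lactate were higher and few others passed. Slc16a3, the lactate exporter MCT4, had 67.6, 632, 886, 1153, 816, 643 and 200.2 and was 8.75-fold higher. Ldha, which makes lactate, went from 2075 to 4819.6 and was 2.19-fold higher, and Hif1a, the hypoxia factor gene, was 2.10-fold higher. Their counterparts lay the other way, Ldhb at a log2 difference of -0.94 and the astrocyte aldolase gene Aldoc 2.14-fold lower, from 9693 to 5054. Gapdh (0.047), Slc2a3 (0.0074) and Vegfa (0.57) did not pass. Of 38 measured members 6 were higher and 1 lower. None passed among 46 oxidative phosphorylation subunits (44 detected), which had a median of -0.19 and a range of -0.52 to 0.18, or among 21 genes of the tricarboxylic acid cycle, with a median of -0.15.

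Lipid genes lay on both sides, with 5 of 30 measured higher and 3 lower. Plin2, which coats lipid droplets, had 108, 1345, 2404, 2894, 3647, 2373 and 761 and was 16.8-fold higher, and Fabp4, a fatty acid carrier of macrophages, was at least 2.05-fold higher. Apoc1 had 303, 255, 92.2, 199.9, 1016, 2407 and 1103 and was 3.01-fold lower at 24 hrs, before its level at 5 days, and Apoe lay at -0.91 inside the line. Acsl6, a brain acyl-CoA synthetase gene, was 2.51-fold lower. For Angptl4 and Pltp 1 of 2 detected probes passed and the other did not, so their folds (3.95-fold higher and 2.07-fold lower) are uncertain. Cholesterol synthesis had 0 of 19 measured members past the rule, with a median of 0.085. Among the translation genes, 0 of 65 cytosolic ribosomal protein genes passed and their median was 0.29, above that of all genes, while 59 mitochondrial ones had a median of -0.016 that turned to 0.12 without normalization. Mrpl18 alone of them passed, with 991, 398, 206, 26.7, 522, 604 and 528 and was 4.70-fold lower.

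Proteins of the matrix and the enzymes that cut it were higher around a few genes. Adamts1, a protease of aggrecan and versican, had 81.9, 562, 746, 339.6, 262, 137 and 85.8 and was 6.49-fold higher, at its brightest at 24 hrs. Anxa2, a receptor for plasminogen activation, had 92.5, 464, 930.3, 1016, 1436, 976 and 357 and was 7.41-fold higher, and Plau, the urokinase gene, was at least 1.62-fold higher. Serpina3n, an acute phase inhibitor of astrocytes, was not detected on the normal array and then had 53.3, 186, 70.8, 131, 10.9 and not detected and was at least 5.68-fold higher. Mmp14 and Timp2 did not pass, at 1.0 and 0.95, and Adam17 lay at 0.52. Of 33 metalloproteinases and inhibitors measured, 21 were detected and 6 were higher, and 8 of 21 genes of the plasminogen system and protease inhibitors were.

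Of 15 genes measured in the list of osteopontin, its receptors and matrix partners, 13 were detected, 6 were higher, Spp1 among them, and 1 was lower. Cd44 had 25.5, 218, 625, 526, 430.4, 304 and 137 and was 11.5-fold higher, at its brightest at 24 hrs, and Itga5, the fibronectin receptor subunit, was at least 2.94-fold higher, while Itgb1 and Itga1 lay at 0.83 and 0.79. Ccn1, an early matrix signal, had 56.4, 452, 677, 205, 209, 276 and 76.0 and was 7.62-fold higher. Vtn, which encodes the adhesive protein vitronectin, went the other way, with 478, 246, 114, 203, 242, 342 and 336 and was 3.87-fold lower. The fibrillar collagen genes Col1a1, Col1a2 and Col3a1 lay below or near normal (-0.94, -0.81 and -0.20), and the basement membrane gene Col4a1 was 2.85-fold higher. Emp1, Emp3 and Lox, which crosslinks collagen, were 5.90-fold, 5.29-fold and 6.09-fold higher.

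Galectins, S100 proteins and annexins had members higher and, among S100 proteins, members lower. Lgals3, or galectin-3, had 137, 1547, 5272, 9529, 15579, 10569 and 4061 and was 30.7-fold higher, and Lgals1 2.67-fold. S100a11, S100a4 and S100a6 were 7.71-fold, 7.23-fold and 4.52-fold higher. S100b, the astrocytic form, had 6494, 5694, 3335, 3068, 5255, 6021 and 6240.2 and was 2.07-fold lower, and S100a13 was 2.08-fold lower. Of 14 S100 genes measured 4 were higher and 2 lower, with a median of 0.38 over the 10 detected and -0.11 when the undetected were counted. Anxa1 and Anxa2 were the leading annexins, Anxa1 at 4.72-fold, whereas Anxa5 and Anxa6 lay at 0.27 and -0.02.

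Astrocyte genes were divided. Of 20 genes known from reactive astrocytes, 19 were detected and 18 were higher, and the other, Tgm1, lay at a log2 difference of 0.77. Of them 13 were detected on the normal array. Some of these genes, such as Lcn2, Cd44, Timp1 and Cxcl10, also stand in lists of other cells or processes. In bulk RNA their levels cannot be assigned to astrocytes alone. Of 25 genes for coupling, transport and metabolism of astrocytes, 0 were higher and 8 were lower, with a median of -0.77. The lists were drawn up with earlier results of these arrays known, and their counts are descriptions.

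Filament genes belonged to the first group. Gfap, the astrocyte filament, had 3805, 9932, 20736, 19255, 20330.4, 19856 and 13477 and was 4.97-fold higher, at its brightest at 24 hrs. Vim, or vimentin, had 1287, 1794, 5133, 7200.0, 11086, 7266 and 4064 and was 3.83-fold higher. Nes, or nestin of progenitors, had 25.6, 36.3, 322, 287, 318, 149 and 52.3 and was 6.14-fold higher. At 12 hrs Nes and Vim were nearer to their normal level than to that at 24 hrs. S1pr3 and Sphk1, a receptor for sphingosine phosphate and the kinase that makes it, were at least 3.79-fold and 4.97-fold higher. Fgf2 was 2.06-fold higher and Tm4sf1 2.25-fold.

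In the second group Gjb6, which encodes the gap junction protein connexin 30, was the gene farthest below normal, with 2095, 1523, 334, 1054, 1665, 1382 and 1512 and was 6.37-fold lower. Cldn10, a claudin of astrocytes, had 1505, 706, 271, 606, 953, 1011 and 1123 and was 5.52-fold lower. Plpp3, a phospholipid phosphatase, had 3577, 2008, 1188, 2209, 2918, 3239 and 2662 and was 3.18-fold lower. Each of the 3 had its lowest array at 24 hrs and had come back part of the way by 48 hrs. Cbs of cysteine synthesis and Slc7a10, a serine transporter gene, were 2.68-fold and 2.52-fold lower. Gja1, or connexin 43, and the water channel gene Aqp4 lay lower inside the line, at -0.98 and -0.77. The glutamate transporter genes differed from each other, Slc1a3 at -0.73 and Slc1a2 at 0.021. Agt, the angiotensinogen gene of astrocytes, was outside the list and 4.38-fold lower. The astrocyte markers summed to 35671 units on the normal array and 38581 at 24 hrs, with 1 of 7 higher (Gfap) and 2 lower. The rise of Gfap was larger than that of the sum, so the summed intensity of the other markers fell. The median log2 difference of the 7 markers was -0.77.

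**Figure D3:**
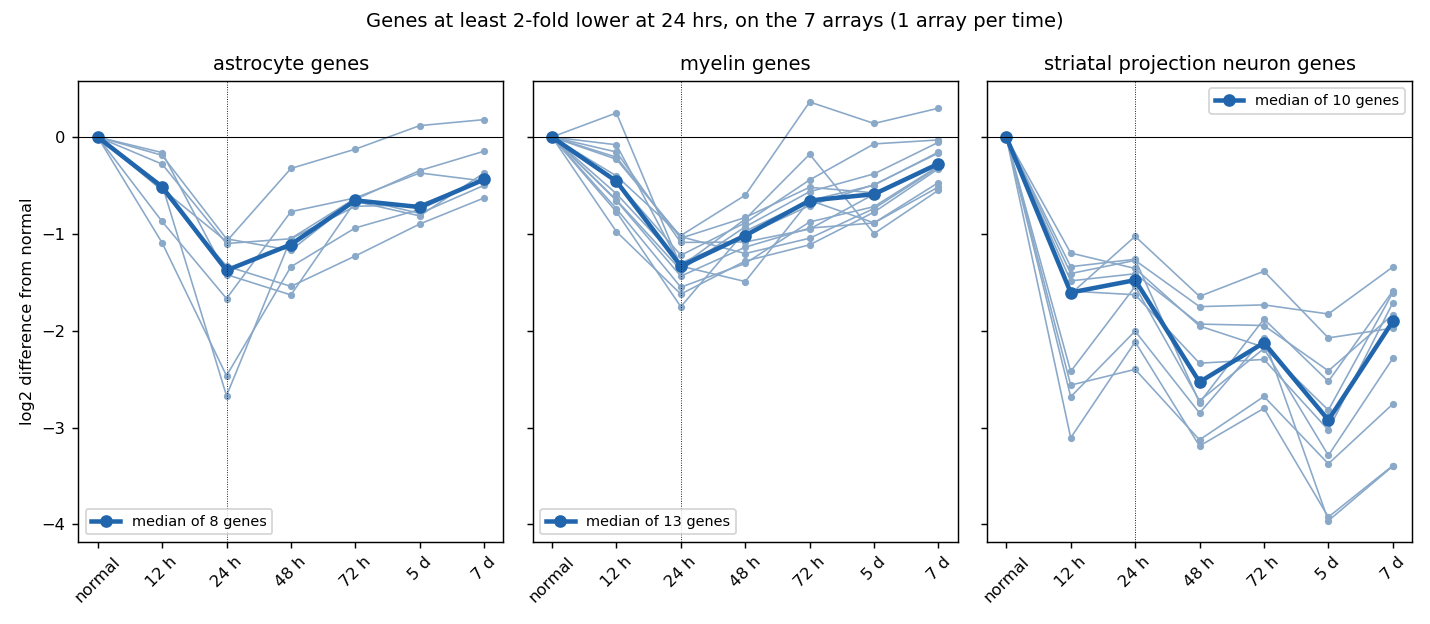
Log2 difference from normal (vertical axis) on the 7 arrays, spaced evenly, for the genes of the astrocyte, myelin and striatal lists that passed the rule as lower at 24 hrs, with thin lines for single genes and the thick line for their median. The genes were picked for being low at 24 hrs, so the dip there is in part a result of the choice, and the striatal genes stayed low on all later arrays while the median of the other lists moved back toward 0.

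Myelin genes were the list with the most members lower. Of 25 genes of myelin and mature oligodendrocytes, all detected, 13 were at least 2-fold lower and 0 higher, with a median of -1.02. Ermn, a cytoskeletal protein of the sheath, had 1765, 1063, 549, 928, 1377, 1435 and 1618 and was 3.37-fold lower. Mbp, the main protein of compact myelin, had 6691, 5619, 3441, 3065, 4024, 4636 and 5691 and was 2.04-fold lower. Mobp, another myelin protein gene, had 4153, 5088, 1768, 2497, 4745, 2461 and 2998 and was 2.52-fold lower. Ermn and Mobp were lowest at 24 hrs and Mbp at 48 hrs, and the deposited level of Mobp was somewhat above normal at 12 and 72 hrs. Opalin, Car2 and Ugt8, the galactolipid enzyme gene, were 3.08-fold, 2.93-fold and 2.71-fold lower.

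The other 12 members of the list did not pass. The transcription factor genes Olig2 and Sox10 lay at log2 differences of -0.21 and -0.22, and Mag and Cldn11, of the sheath, at -0.33 and -0.18. Of the genes lower in this list, 11 of 13 had their lowest level at 24 hrs, the time at which they were selected. Over the 13, the median difference from normal went from -0.46 on the 12 hrs array through -1.33 and -1.02 on the next ones to -0.28 on the last. Among precursor genes Cspg5 was 2.57-fold lower and Pdgfra lay at -0.31, with 1 of 10 measured lower. The 5 oligodendrocyte markers measured summed to 18532 units on the normal array and 8952 at 24 hrs.

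Vessel genes passed the rule in some lists and hardly in others. Slco1c1, the thyroid hormone and organic anion transporter of brain endothelium, had 2248, 699, 435, 918, 663, 1051 and 1073 and was 5.38-fold lower. It was the 1 member lower of 26 barrier genes measured, and 0 were higher. The junction genes Cldn5, Ocln and Tjp1 lay at -0.62, -0.94 and 0.12. Tagln, an actin-binding protein of smooth muscle, had 134, 142, 1465, 1532, 1823, 423 and 186 and was 8.67-fold higher, with a step between 12 and 24 hrs. Anpep of pericytes was 2.35-fold higher, while Myl9 lay at -0.42. Vtn, in the same list, was 3.87-fold lower. Of 18 smooth muscle and pericyte genes measured, 13 were detected, 2 were higher and 1 was lower. Of angiogenic genes, Hbegf, a growth factor that cells shed, had 36.1, 299, 450.3, 164, 119, 59.5 and 30.8 and was 6.88-fold higher. Angpt2, which loosens vessels, had 14.1, 122, 149, 86.2, 69.9, 41.9 and 24.0 and was 4.13-fold higher, against Angpt1 at -0.015 and Tek, their receptor, at 0.16. The 5 endothelial markers measured, Slco1c1 among them, summed to 4360 units on the normal array and 1887 at 24 hrs. Most of that fall was the fall of Slco1c1, the 1 marker lower, and 0 were higher. The part of endothelium in these values was not tested. In the angiogenic list 7 of 37 measured members were higher and 0 lower.

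Of 30 neurotrophin, GDNF and growth factor genes measured, 5 were higher and 1 lower, and of 39 genes of TGF-beta, activin and BMP signaling 6 were higher and 0 lower. The 1 lower was Ntf3, the neurotrophin 3 gene, by at least 1.51-fold. Igfbp3, which binds insulin-like growth factors, had 31.1, 101, 282, 299, 188, 65.6 and 45.5 and was 4.90-fold higher. Tgfb1 and Tgfb2 were 3.32-fold and 2.67-fold higher, from 24.5 to 157 and from 334 to 1020.4, and Ltbp1, which stores them in the matrix, 2.44-fold. Inhba, the activin chain, had 14.2, 152, 69.7, then was not detected and was 2.24-fold higher. Of the intracellular SMAD genes, Smad2, Smad4 and Smad7 lay at 0.91, 0.49 and -0.29. Ret and Nrtn, a receptor and a ligand of the GDNF family, were 2.72-fold and 2.36-fold higher, and Sprr1a, a gene of regrowing axons, 2.92-fold. Ntrk2, the receptor of BDNF, lay at -0.82 inside the line.

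In the Notch list 1 of 22 measured members passed. It was Hes5, a target of the pathway, with 50.7, no detection up to 72 hrs, 12.7 and 22.4, at least 2.37-fold lower. Hhip, which binds hedgehog ligands, had 303, 163, 67.2, 132, 185, 151 and 184 and was 3.86-fold lower, the 1 member of its list to pass out of 11 measured, 5 of them detected. Wnt7b was at least 1.97-fold higher from no detection, and the other 29 detected Wnt genes did not pass. For feedback regulators of growth signals, Errfi1, an inhibitor of the EGF receptor, was 2.52-fold higher, Ier3 2.44-fold and the G-protein regulator gene Rgs16 2.53-fold higher, whereas Dusp1 and Dusp6 lay at 0.35 and -0.22.

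Genes of cell division were higher in part. Kif22, a chromosome motor, had 56.3, 186, 380.1, 588, 742, 559.9 and 173 and was 4.42-fold higher, and Rrm2, which makes DNA precursors, 18.2, 37.5, 112, 555, 1312, 816 and 177 with a fold of 2.94. Both were brightest at 72 hrs, as was Cdk1, at 2.27-fold on the 24 hrs array. The helicase genes Mcm2, Mcm3 and Mcm6 were 2.18-fold, at least 2.80-fold and 2.68-fold higher, and Pcna lay just inside the line with a log2 difference of 1.0. Mitotic genes such as Plk1, Aurka and Cdc20 were near normal, at 0.15, -0.019 and 0.075. Of 35 measured members 6 were higher and 0 lower.

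Neuronal gene lists differed from each other. Glutamate and GABA receptor subunits, channels and calcium sensors had negative medians and 0 to 2 members higher, and vesicle genes had none past the rule. Of the neuronal lists that of striatal projection neurons had the most genes lower, 10 of 25 measured genes lower and 0 higher. Pde10a, a cyclic nucleotide phosphodiesterase, had 1589, 251, 306, 171, 279.8, 155 and 218 and was 5.27-fold lower. Rgs9, a brake on dopamine receptor signaling, had 2038, 219.7, 490.1, 215, 336, 134 and 177 and was 4.33-fold lower, and Adora2a, the adenosine receptor of the indirect pathway, 2468, 368, 644, 341, 695, 159.9 and 214 with a fold of 4.01. All 3 were below normal at 12 hrs already, and lower there than at 24 hrs. Of the 10 striatal genes lower, 0 had their lowest level at 24 hrs. Ppp1r1b, or DARPP-32, was 2.40-fold lower, and Drd1 was 2.04-fold lower, whereas Drd2, Penk and Tac1 lay at -0.43, -0.93 and -0.19.

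Cortical and hippocampal neurons were represented by transcription factors of glutamatergic cells. Neurod6 had 676, 216, 99.7, 119.9, 214, 215 and 465 and was 5.91-fold lower. Neurod1 had 111, 68.3, 10.8, 137, 47.6, 88.1 and 129 and was 3.98-fold lower, with a range of 2.57-fold to 5.38-fold over the alternatives. Bhlhe22, named among the 24 lowest genes, was 5.19-fold lower (1868 on the normal array and 364 at 24 hrs). Neurod6 and Bhlhe22 stayed lower than normal on each later array, and Neurod1 was above normal at 48 hrs and 7 days. Nrgn, a calmodulin-binding protein of dendrites, went from 18986 to 10161 and was 2.12-fold lower. The transporter gene Slc17a7 and the kinase gene Camk2a lay at -0.34 and -0.30, and 5 of 23 measured members were lower.

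Among receptor subunits the AMPA and NMDA genes Gria3, Gria2 and Grin2a were 2.29-fold, 2.07-fold and 2.71-fold lower, and Cacng3, an auxiliary AMPA receptor subunit, had 672, 406, 214, 245, 237, 183 and 455 and was 3.10-fold lower. Grin1 and Dlg4 did not pass, at -0.68 and -0.43. On the inhibitory side Gabrd, the subunit of receptors outside synapses, had 612, 593, 162, 221, 188, 169 and 399 and was 3.63-fold lower, and Gabra5 was 2.68-fold lower. The GABA-synthesizing enzyme genes Gad1 and Gad2 were close to normal, at 0.12 and 0.064. Counts were 5 of 21 glutamate receptor genes and 4 of 19 GABA genes lower, with 0 higher in both.

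For ion channels, Kcnd2, of the transient potassium current, had 1338, 930.1, 534, 627, 687, 655 and 813 and was 2.62-fold lower, and Scn4b, a sodium channel subunit rich in striatum, 1152, 371, 384, 222, 263, 143 and 340.5 with a fold of 3.09. Kcnn4, a channel of activated immune cells and microglia, was at least 2.30-fold higher. Of 82 potassium channel genes measured, 5 were lower and 2 higher, and of 34 sodium and calcium channel genes 5 were lower. Calcium sensors and kinases had 8 of 37 lower, led by hippocalcin, Hpca, with 4049.8, 1945, 1477, 843, 1539.8, 1241 and 2596 and a fold of 2.88, and with the calcineurin gene Ppp3ca at 2.25-fold lower. Vesicle genes had 0 of 36 past the rule and a median of -0.24, with Snap25, Syt1 and Syp at -0.51, -0.25 and -0.31. The 10 neuron markers summed to 32919 units on the normal array and 29849 at 24 hrs, with 0 past the rule.

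Neuropeptide genes lay on both sides of normal. Gal, or galanin, had 22.9, 60.3, 241, 163, 147, 108 and 61.3 and was 5.05-fold higher. Npy had 1039.7, 1376, 2793, 2954, 1106, 707 and 518 and was 2.48-fold higher. Nts, or neurotensin, had 398, 126, 163, 106, 361, 179 and 249.9 and was 2.45-fold lower. Gal was above its normal level on every array after eMCAo. Npy was brightest on the 24 and 48 hrs arrays and below its normal level by 5 days. The calcium buffer gene of fast interneurons, Pvalb, was 2.42-fold lower, and Sst, Vip and Cck lay at 0.38, -0.53 and 0.66. Tubb6 and Tubb2b, tubulins of growing and injured axons, were 13.3-fold and 2.42-fold higher, while Tubb3 and Gap43 lay at -0.11 and -0.026.

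Some genes of the comparison mark tissue other than cortex and striatum, or blood. The hypothalamic hormone genes Avp, Oxt and Trh were 19.8-fold, 7.94-fold and 12.6-fold higher. Avp, or vasopressin, had 36.4, 1639, 1301, 58.4, 95.8, 1089 and 1089, Oxt, or oxytocin, 60.1, 1114, 735, 9.72, 189.7, 311 and 706 and Trh, or thyrotropin-releasing hormone, 165, 858, 2570.5, 3409, 519, 399 and 279. Avp and Oxt were bright at 12 and 24 hrs, near or below normal at 48 hrs and above it again at 5 and 7 days, while Trh was brightest at 48 hrs. These 3 genes made up most of the summed intensity of the 5 hypothalamic markers, 302 on the normal array and 4652 at 24 hrs, and Hcrt was not detected on either. Of 17 genes of thalamus and hypothalamus measured, 14 were detected and 4 were higher, these 3 and Gal, and the others, such as Pmch and Pomc at 0.037 and -0.47, did not pass. Whether the tissue taken differed between the arrays was not tested.

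The haemoglobin genes stood apart in the same way. Hbb had 205, 5449, 2779.7, 708, 695, 83.9 and 44.1 and was 11.3-fold higher. Hba-a1 had 217, 5413, 2899.9, 723, 746, 93.1 and 46.3 and was 11.2-fold higher, and Hbb-b1 was 9.72-fold higher. All 3 were brightest at 12 hrs and below normal on the 5 day and 7 day arrays. These genes have near-identical copies whose transcripts the probes may share, and the 3 values may not be separate measurements. The 4 erythrocyte markers summed to 432 units on the normal array and 5691 at 24 hrs, with Alas2 not detected on either. By the study's methods rats with haemorrhagic transformation were left out. The part of blood in the other differences was not tested.

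Further marker sets differed less in their sums. The 5 choroid plexus markers summed to 5546 and 8508 units with 0 past the rule, and the 6 of meninges and fibroblasts to 2155 and 1729, with Slc22a6 lower and Col1a1 not detected at 24 hrs. Muscle and cerebellar markers had 1 member each detected, on both arrays. Ogn, a matrix protein of meninges, was 3.28-fold lower (419 on the normal array and 119 at 24 hrs) and Mgp, the matrix Gla protein gene, 3.55-fold higher (422 on the normal array and 1653 at 24 hrs). As for the label of the tissue, the defining markers of neurons, astrocytes and oligodendrocytes were all detected on both arrays.

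A list was drawn from the genes that the study names as targets of microRNAs, without holding all of them. Of 19 members measured, 15 were detected, 2 were higher and 0 lower. The 2 on the list were Tgfb1, given above, and Ccn2, a matrix growth factor, with 1053, 1533, 2305, 1950.4, 2801, 1370.5 and 1196 and a fold of 2.05. Of those that did not pass, Gja1 and Col1a1 came closest from below, at -0.98 and -0.94, and Smad2 and Cdkn1a from above, at 0.91 and 0.75. Otx2, Bdnf and Notch1 lay at 0.17, -0.21 and 0.018. The median over the 19 was 0.02. Of targets that the list left out, Tgfb2 was higher, as given above, and Dll1, Reck and Vsnl1 did not pass, at -0.21, -0.19 and -0.85. For some genes named here that did not pass, the study's own log ratios at this time differ in size. They are larger for Cdkn1a, Col1a1, Smad2, Notch1 and Dll1 and smaller for Bdnf, Reck and Vsnl1. The reason for these differences was not tested.

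**Figure D4:**
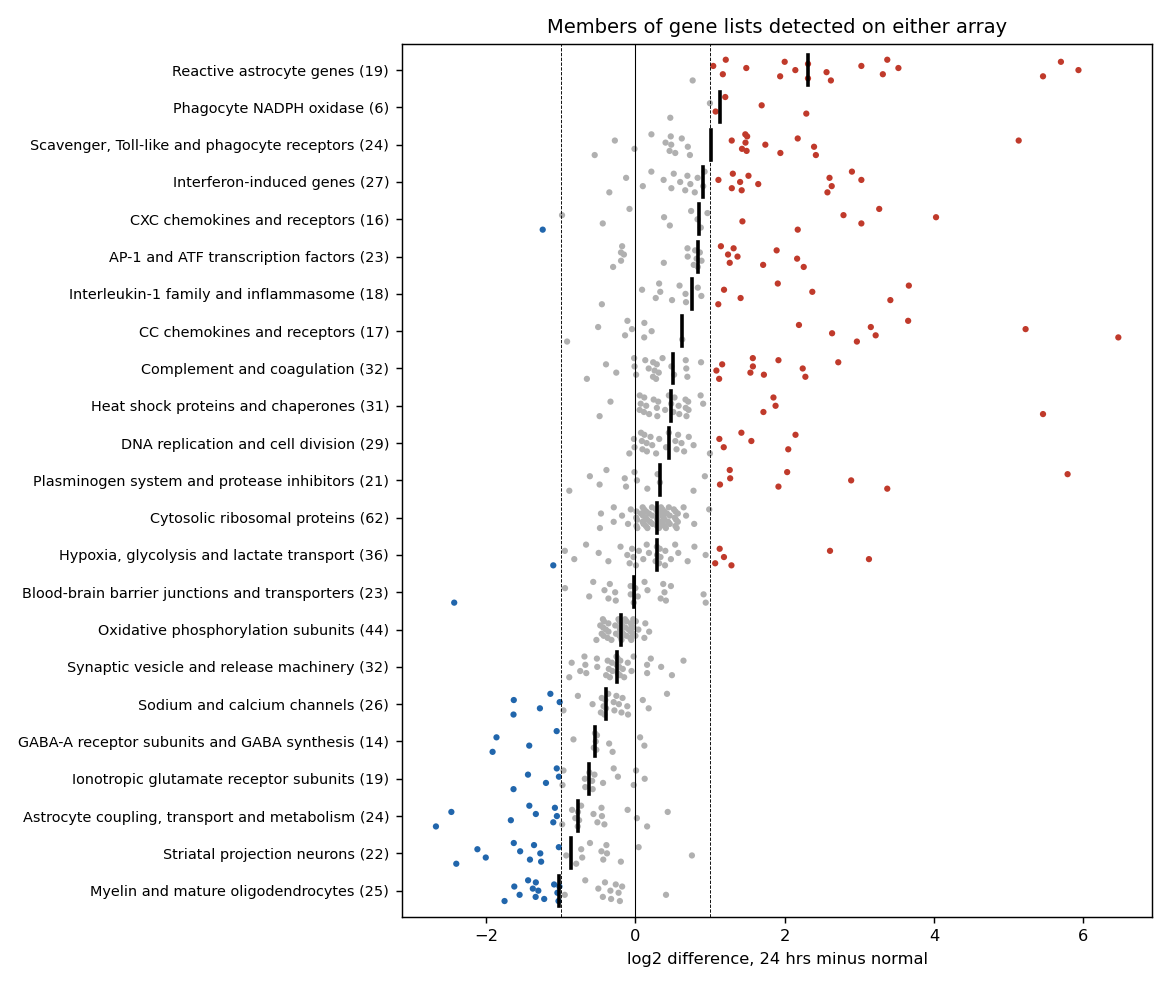
Log2 difference between the 24 hrs and normal arrays (horizontal axis) for each detected member of 23 gene lists, with the number of members in parentheses. Black bars mark medians, dashed lines 2-fold, red points members higher and blue points members lower, and the medians run from -1.02 for myelin to 2.31 for reactive astrocyte genes.

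Among the genes farthest below normal, several belong to none of the lists above. Itm2a, a membrane protein gene, had 1965, 379.6, 479, 1114, 1269, 1567 and 1317 and was 4.22-fold lower. Lix1 had 462, 296, 98.7, 173, 207, 219 and 231 and was 4.20-fold lower. Abcd2, a peroxisomal transporter of very long fatty acids, had 589, 254, 131, 212, 251, 309 and 382 and was 4.18-fold lower. For these 3 genes the 24 hrs array was the dimmest of the 7 or close to it. Rxrg, a retinoid X receptor gene of striatum, and Fxyd7, a regulator of the sodium pump, were 3.72-fold and 3.66-fold lower, and Nkain4, Pamr1, Cyp4f4, Lrrc10b and the olfactory receptor gene Olr59 lay between 3.51-fold and 3.94-fold lower.

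Set in time, the 24 hrs array was the extreme of the 7 for a part of its own list. Of the 425 genes higher, 141 had their highest level at 24 hrs, 54 before it and 230 after it, among them 111 at 5 days. Of the 251 genes lower, 148 had their lowest level at 24 hrs, 9 before it and 94 after it. Genes were picked at 24 hrs, which by itself raises the share found there. Each other time was 1 array too, and these orders were not tested.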

How the data were processed

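The values were the deposited intensities of each probe on 7 Illumina rat bead arrays. The authors subtracted background, with BeadStudio named in the methods and GenomeStudio 1.8.0 in the submitters' processing notes. A 5S rRNA normalization is also named in the methods, but not the arrays it was for. A further 48 columns of 12 arrays matched no sample and were not used.

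Neqc had been planned, but no control probes matched these arrays. Instead a normal-exponential background model was fitted to each array (limma 3.58.1, R 4.3.3), 16 units were added as an offset, and the 7 arrays were quantile normalized on the log2 scale. Genes were named from the platform's probe annotation and represented by their brightest probe. The detection limit was the 98th percentile of an array's mirrored negative values. A gene was called higher or lower when it differed from normal by 2-fold or more and passed the detection limit on the normal or the 24 hrs array, a rule of size with no test. The number of arrays, 1 per group, limits the precision. The procedure was tried on simulated data, with changes placed only in genes that were detected on the normal array. The changes were larger than the 2-fold limit, and the noise was that of the closest 2 arrays of the series. That noise is below the spread between the 2 arrays compared. The trial therefore does not cover changes near 2-fold or genes undetected on the normal array.

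The genes and the 75 gene lists were chosen with earlier results of these data known. Named genes were the 24 farthest from normal in each direction and up to 8 past the rule per list. List members that did not pass, and C1r, Drd1, Irf7, Irf9, Mbp, Ppp1r1b, S1pr3 and Tm4sf1, were named after their values were seen. Promoters came from RefSeq build GRCr8, where 10993 of the 13337 genes had an entry. The alternatives were other normalizations, offsets, filters on dim genes, fold limits and probe summaries.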

Additional observations from a re-analysis of the deposited data

Results flagged for a closer look

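Probes without a gene symbol were outside the comparison of genes, and some of them differed between the arrays. Of 3919 such probes detected on either array, 78 were at least 2-fold higher at 24 hrs and 76 at least 2-fold lower, or 1.99% and 1.94%. The probe ILMN_1376417 was 16.9-fold higher and ILMN_2040557 10.1-fold higher. The probe ILMN_1355678 was 7.75-fold lower and ILMN_1364821 4.58-fold lower. These probes are unnamed here, and no test was possible with 1 array per group.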

How the results depend on the processing

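No paired analysis was possible because each group had 1 array and no replicate numbers. Of 12 alternatives, scaling mainly moved the balance of directions, with 74.1% of called genes higher without normalization between arrays and 68.3% with median scaling, against 62.9%. An offset of 50 left 160 genes lower. A limit of 1.5-fold gave 1004 genes higher and 892 lower, and 3-fold gave 184 and 53, or 77.6% higher. Requiring 2-fold also against the lowest detected level, a rule chosen after seeing the data, gave 392 and 244. Of the 299 genes past the rule that were chosen for naming, 0 turned sign, and 38 moved by over 1.5 times in fold, among them Ccl7 (21.9 to 50.4), Cd44 (7.55 to 14.3), Il1b (6.38 to 14.4), S100a8 (5.88 to 14.6), Cp (5.78 to 13.9), Il1r2 (5.05 to 12.3), Ccr1 (4.75 to 10.6) and Ccl3 (4.37 to 10.4), dim or undetected on the normal array. The median of the S100 proteins turned from 0.38 to -0.11 with no filter on dim genes. List medians depended most on requiring an intensity above 100 on either array. Under that limit 34 list medians moved by more than 0.225 on the log2 scale, 39 stayed within it and 0 reversed. Folds of dim genes depend on the offset and on the background model. The causes of these shifts were otherwise not tested.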
